A study of Mus musculus with 25 samples.

Results

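Messenger RNA of 5 genes that male germ cells switch on at or before the haploid stage was followed across the gonadal white adipose arrays of a mouse tissue series and the arrays of its other tissues. The genes are Prm1 and Prm2, which encode protamines, Tnp2, which encodes a transition protein, and Ldhc and Pgk2, which encode sperm forms of glycolytic enzymes. They are 5 of the 13832 genes that the platform annotation names on these arrays, and each has 1 probe. The genes were chosen by their Signal and signal to noise ratio, high on fat arrays and low elsewhere, so that contrast is given below as a description, without a test.

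The series compares B6.C-D7Mit353, a congenic strain named for a chromosome 7 marker and labelled lean and homozygous, with C57BL/6J (B6), the strain that supplies its background. Gonadal white adipose tissue, liver, brain and gastrocnemius, a calf muscle, were each read on 3 congenic and 3 B6 arrays, 24 in all. A 25th array, of congenic brain, lies outside the named triplicates. The labels give no age, diet, treatment, sex or way of dissecting the fat. The study's design text lists 1 B6 adipose array among the livers, and it was used here as its own title and source label give it.

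During spermiogenesis, transition proteins first take the place of histones in the spermatid nucleus, and protamines then take the place of transition proteins to compact sperm chromatin. Spermatocytes and spermatids also switch from widely used glycolytic enzymes to germ cell forms of them. Pgk2 is a retrogene copy of the X-linked Pgk1, and Ldhc is a neighbour and relative of Ldha. Genes of this kind are textbook transcripts of the testis, and adipocytes are not known for them.

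The 150 bases before each gene's annotated start are shown as a description. Whether they bear on the levels of the 5 genes on these arrays was not tested. The sequences are from RefSeq on build GRCm38.p6, 5′ to 3′ on the strand of the gene, and capitals mark letters that match a searched motif on either strand. For Ldhc, the more upstream of 2 listed starts was used.
Prm1, chr16:10796824-10796973, minus strand: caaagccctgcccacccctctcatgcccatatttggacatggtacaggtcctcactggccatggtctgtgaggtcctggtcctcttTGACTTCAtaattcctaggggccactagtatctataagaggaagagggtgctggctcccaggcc
Prm2, chr16:10792106-10792255, minus strand: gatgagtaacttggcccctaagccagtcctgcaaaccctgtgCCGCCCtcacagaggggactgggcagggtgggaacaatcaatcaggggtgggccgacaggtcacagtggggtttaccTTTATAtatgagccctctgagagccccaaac
Tnp2, chr16:10788656-10788805, minus strand: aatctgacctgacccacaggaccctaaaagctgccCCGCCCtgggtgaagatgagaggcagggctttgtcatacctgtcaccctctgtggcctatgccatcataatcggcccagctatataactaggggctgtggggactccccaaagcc
Ldhc, chr7:46861113-46861262, plus strand: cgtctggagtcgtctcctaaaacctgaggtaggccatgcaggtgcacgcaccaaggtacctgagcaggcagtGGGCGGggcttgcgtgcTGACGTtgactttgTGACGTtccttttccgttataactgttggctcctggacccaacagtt
Pgk2, chr17:40208610-40208759, minus strand: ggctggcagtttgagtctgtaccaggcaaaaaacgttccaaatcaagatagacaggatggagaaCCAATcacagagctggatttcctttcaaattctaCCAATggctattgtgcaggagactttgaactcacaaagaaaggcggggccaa

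The cAMP response element, TGACGTCA, is the motif bound by CREM, a transcription factor known for switching on spermatid genes. It was in 0 of these 5 windows and in 1.36% of the 32851 windows of this length in the promoter table. Its first 6 letters, TGACGT, which any full match also holds, were found at 2 places before Ldhc and in 5.15% of all windows. The variant TGACTTCA was found before Prm1 and in 0.828% of windows. The GC box letters GGGCGG were found before Prm2, Tnp2 and Ldhc and in 28.6% of windows. TATAAA was found before Prm2 and in 7.57% of windows, and CCAAT at 2 places before Pgk2 and in 24.5%. Both strands were searched, and a match describes letters only. No motif of those searched was found before all 5 genes.

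Each array gives a Signal, an intensity in arbitrary units, and a signal to noise ratio for each of 32996 probes. A probe with a ratio of at least 3 is called well above background here. Between 13115 and 18236 probes passed on the 24 arrays. Congenic fat replicate 1 had the fewest of the fat arrays, at 15710 against 17542 to 18236 on the other 5, and the lowest median Signal of them, at 373.9 against 538.65 to 951.8. All 7 adipocyte markers with a probe were well above background on all 6 fat arrays, with a summed normalized intensity of 1220810 to 1917980 against at most 476791 on any other array. Whether the lower detection of congenic fat replicate 1 bears on the values below was not tested.

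Prm1, one of the protamine genes, had a Signal of 247.3, 28513.1 and 141631 on the 3 congenic fat arrays and of 44248.7, 21118.9 and 29239.9 on the 3 B6 fat arrays, in replicate order. Congenic replicate 1 was not well above background for it, with a ratio of 1.3, while the other 5 fat arrays had ratios of 58 to 101.9. On brain, liver and gastrocnemius arrays its Signal ran from 125.3 to 480.8, and 1 of these 18 arrays passed, B6 liver replicate 1 with a ratio of 3.4. Apart from congenic replicate 1, the fat arrays lay far above all others, and that array lay among them.

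Prm2, the other protamine gene, is translated into a precursor that is trimmed on sperm DNA. Its Signal was 1379.4, 51933.2 and 177426 on the congenic fat arrays and 72995.2, 50018.4 and 57453 on the B6 fat arrays. All 6 passed, with ratios of 7.2 to 112.4. Outside fat its Signal was 93.3 to 953.5, and it passed on congenic gastrocnemius replicate 1, at a ratio of 4.3, and on congenic brain replicate 4, at 3.5. Even the lowest fat array lay above every array of the other tissues.

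Tnp2, whose protein precedes the protamines on spermatid DNA, read 201.8, 14038.9 and 84205.4 on congenic fat and 26233.2, 10328 and 12000.4 on B6 fat. All 6 passed, congenic replicate 1 at a ratio of 4.8 and the others at 57.1 or more. It passed on 0 of the 18 other arrays, whose Signal was 68.6 to 351.3. The Signal of congenic replicate 1 thus lay inside the range of tissues where the probe was not well above background.

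Ldhc encodes the lactate dehydrogenase subunit of spermatocytes, spermatids and sperm. It read 396.2, 5199.9 and 35709.8 on congenic fat and 22157.2, 3459.1 and 13547.1 on B6 fat, with ratios of 3.5 to 87.7. It passed on 0 of the 18 other arrays, whose Signal was 46.3 to 408.3. Congenic replicate 3 was highest and congenic replicate 1 lowest, so the congenic arrays enclosed the range of the B6 arrays.

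Pgk2, the phosphoglycerate kinase of spermatocytes, spermatids and sperm, read 32.5, 1917.8 and 5318.5 on congenic fat and 4256.9, 2679.9 and 3684.4 on B6 fat. The value of congenic replicate 1 had a ratio of -3.3 and carried a Flag of 0, which 4 of the 125 values of these genes carry and whose meaning the labels do not give. The other 5 fat arrays had ratios of 12.4 to 44.8.

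Pgk2 was also the gene with repeated values above background in another tissue. It passed on 5 of 6 liver arrays, with a Signal of 232.4 to 483.4 over the 6, and on 0 of 12 brain and gastrocnemius arrays, where Signal was 73.9 to 249.1. Every liver value lay below the 5 fat arrays that passed. The ratios of the 5 livers ran from 3.3 to 8.

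**Figure D1:**
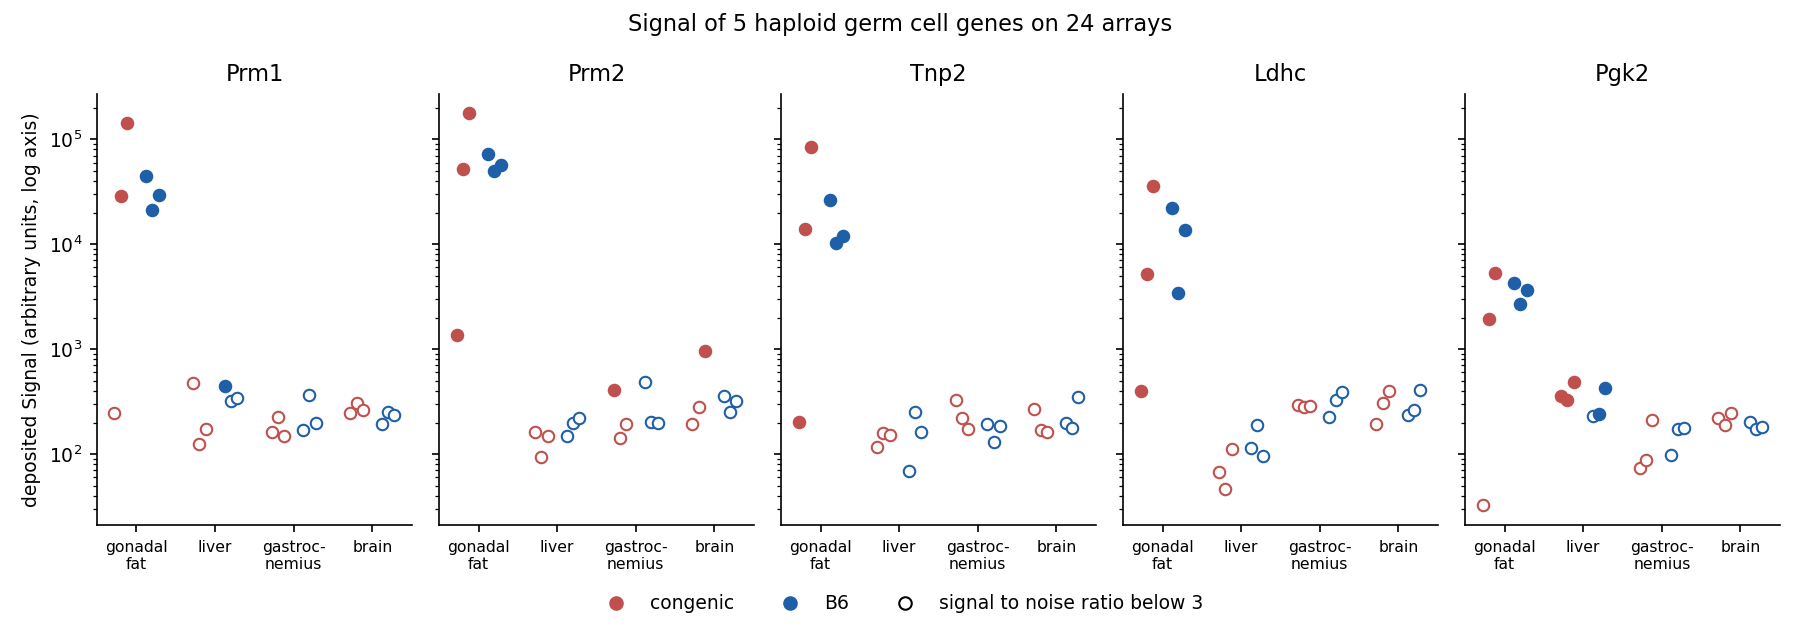
Deposited Signal, in arbitrary units on a log axis, of the 5 genes on the 24 arrays of the named triplicates, by tissue and strain; each point is 1 array and open points have a signal to noise ratio below 3. Congenic fat replicate 1, the lowest fat point of each panel, lies near the arrays of the other tissues for 4 genes and above them at 1379.4 for Prm2.

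Together the 5 genes were well above background in 28 of 30 readings on fat arrays and 8 of 90 on the others, which restates how they were chosen. Of all probes, 0.379% passed on at least 5 fat arrays and on none of the 18 others. After normalization over 24 arrays, the mean log2 intensity on fat was 14.15 ± 2.87 for Prm1, 15.33 ± 2.20 for Prm2, 13.19 ± 2.65 for Tnp2, 12.56 ± 2.07 for Ldhc and 10.43 ± 2.21 for Pgk2 (SD, n = 6 each). The log2 difference between fat and the mean of the other tissues was 6.20 for Prm1, 7.44 for Prm2, 5.68 for Tnp2, 4.88 for Ldhc and 2.73 for Pgk2. Against the tissues where a probe passed on no array, fat is given as a bound. Here the tissue was set, per array, at the dimmest value that passed on that array, or at the probe's own value where that was higher. Fat was at least 109-fold higher than brain for Prm1, at least 183-fold higher than liver for Prm2 and at least 43.4-fold higher than gastrocnemius for Tnp2. For Ldhc the bound was at least 40.4-fold against liver and at least 18.9-fold against gastrocnemius, and for Pgk2 at least 9.53-fold against brain. These bounds come from means with error and are not guaranteed minimums. Pgk2 was above background on 5 livers, and the fat mean, which includes congenic replicate 1 below background, was 2.65-fold higher. These folds depended on 2 congenic arrays. Without congenic fat replicate 1 they were 233 for Prm1 against brain, 332 for Prm2 against liver, 85.1 for Tnp2 and 29.5 for Ldhc against gastrocnemius, and 4.87 for Pgk2 against liver. Without congenic fat replicate 3 the same folds were 74.3, 140, 29.0, 13.9 and 2.13.

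With congenic fat replicate 1 left out, the lowest fat array exceeded the highest array of any other tissue by 4.12 log2 units for Prm1, 6.23 for Prm2, 4.02 for Tnp2, 2.44 for Ldhc and 1.04 for Pgk2. With it, Prm1 on 3, Tnp2 on 1 and Pgk2 on 18 of the other arrays exceeded the lowest fat array, and Prm2 and Ldhc on 0. Fat had the highest mean for each gene, and liver came second for Pgk2. Brain, gastrocnemius and, for the 4 other genes, liver hold values mostly not well above background, so no order is read among them.

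From the lowest to the highest fat array, Tnp2 spanned 7.63 log2 units, Prm2 5.71 and Ldhc 5.28, with all 6 arrays above background. Prm1 and Pgk2 were not well above background on congenic replicate 1, so no span with that array is given for them. Without congenic replicate 1 the spans were 2.62 for Prm1, 2.96 for Tnp2, 1.29 for Pgk2, 1.64 for Prm2 and 3.47 for Ldhc. All 5 genes were lowest on congenic replicate 1 and highest on congenic replicate 3, which sit in the same group. Of all probes tested in fat, 22.5% were lowest on congenic replicate 1, 22.4% were highest on congenic replicate 3 and 3.58% were both. B6 replicate 1 was second highest for all 5 genes, and B6 replicate 2 was below B6 replicates 1 and 3 for all 5.

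Pairs of the 5 genes had Pearson correlations of 0.888 to 0.999 over the 6 fat arrays and of 0.778 to 0.996 over the 5 without congenic replicate 1. These are descriptions over few arrays that share depth and RNA. The chromatin genes kept the closest order, with r = 0.996 for Prm1 and Prm2 and 0.991 for Prm1 and Tnp2 over 5 arrays. The enzyme genes Ldhc and Pgk2 had r = 0.980 over the same arrays. Over all 6 arrays they had 0.889, while Pgk2 and Prm2 had 0.986, so no split into chromatin and enzyme genes is read. Prm2 and Ldhc had 0.778 over 5 arrays, the lowest of the 10 pairs. The ratio of the Ldhc to the Prm2 Signal, which shows unequal change and not amounts, was 6.92% on B6 replicate 2 and 30.4% on B6 replicate 1. In bulk tissue, fewer cells of a type and less RNA per cell cannot be told apart.

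Of 4 somatic counterparts of germ cell enzymes with a probe, 1 was higher in fat and 2 were lower. Of all named genes tested, 30.1% were higher and 25.7% lower, and 4 genes are too few to set against these shares. Ldha, the lactate dehydrogenase subunit of muscle, was brightest on gastrocnemius arrays, with a Signal of 451026 to 616415, and read 31571.1 to 127520 on fat. Its log2 value was 1.48 lower in fat than in the other tissues, a difference of -1.48 ± 0.16 (SE, limma, adjusted p = 2.4e-08). Pgk1, the widely expressed phosphoglycerate kinase, was also brightest on gastrocnemius, at 96785.4 to 124884, and had a difference of -2.04 ± 0.12 in fat. Ldhb, the heart form of the subunit, had a difference of 0.03 ± 0.14 (limma, adjusted p = 0.870). Pdha1, the somatic counterpart of the testis gene Pdha2, was higher in fat by 0.77 ± 0.20 (adjusted p = 0.00216). The Ldha Signal had its fat maximum on congenic replicate 3, where Ldhc was highest, but Signal is not scaled between arrays. The median Signal of all probes was 660.1 on that array and 373.9 on congenic replicate 1. After normalization among the fat arrays, 0 of the 4 counterparts were highest on congenic replicate 3. On congenic replicate 1, where Ldhc was lowest, the Ldha Signal was 75578.5, second in fat. Low Ldhc there was not matched by low Ldha.

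The neighbours of the 5 genes on their chromosomes were read as well. On chromosome 16, Prm1, Prm2, Prm3 and Tnp2 lie side by side in the gene table, next to Socs1, a cytokine signalling inhibitor gene. Prm3, which encodes a further protamine-related protein, was well above background on 3 of 6 fat arrays and 6 of 18 others, with a fat difference of 0.06 ± 0.34 (limma, adjusted p = 0.904). Socs1 had -0.20 ± 0.22 (adjusted p = 0.464). On the far side of Prm1, Litaf and Snn were higher in fat by 1.70 ± 0.29 and 1.58 ± 0.26 (adjusted p = 2.6e-05 and 1.5e-05), and both passed on all 6 fat arrays and on 14 and 17 of the others. Dexi, beyond Socs1, was lower in fat, at -1.11 ± 0.11 (adjusted p = 8.6e-09).

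Ldhc lies between Ldha and Tsg101 on chromosome 7. Tsg101, of endosomal sorting, had a fat difference of 0.13 ± 0.11 (limma, adjusted p = 0.359) and Gtf2h1, of the basal transcription machinery, 0.05 ± 0.14 (adjusted p = 0.811). Hps5 and Spty2d1 were higher in fat by 1.01 ± 0.16 and 0.69 ± 0.27 (adjusted p = 9.1e-06 and 0.0389). Beside Pgk2 on chromosome 17, Crisp3 was well above background on 0 of 6 fat arrays, and the other 5 neighbours have no probe here. Rmi2, Clec16a and Uevld, near the chromosome 16 genes and Ldhc, have no probe either, and Crisp3 was not tested.

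A wider list of 68 other haploid germ cell genes with a probe was read in the same way. Limma, at an adjusted p under 0.05, found 39 of the 60 that passed its filter higher in fat and 0 lower. Over all 24120 tested probes, 25.5% were higher and 23.3% lower, and of the 11640 tested genes with a name 30.1% were higher. A gene that is bright on fat alone passes the filter only there, so the count was also made with no filter: 40 of 68 were higher, against 18.5% of all probes. The median difference of the 68 was 1.17 log2 units, and 62 were above 0, while the median over the tested probes was -0.001. The list was collected with earlier results of these data known, and no test was run on it as a set.

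Smcp, of the sperm mitochondrial capsule, had the largest difference of the list. It read 1449, 19231.9 and 68121.6 on congenic fat and 24607.2, 28746.6 and 24245 on B6 fat, a difference of 5.26 ± 0.48 (SE, limma, adjusted p = 2.8e-09). Spz1, a germ cell transcription factor gene, followed at 4.72 ± 0.48, then Gsg1 at 4.15 ± 0.47 and Tcp11, a sperm motility gene, at 4.02 ± 0.53. Fat was also higher for H1f7, a spermatid linker histone gene, at 3.17 ± 0.42, for Odf2, of the sperm tail outer dense fibres, at 3.01 ± 0.42, and for Zpbp2, of the acrosome, at 3.01 ± 0.37. Odf2 was bright on brain arrays as well, at 20267 to 35284.5.

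The other named genes of the list rose in fat by 2.15 to 2.88 log2 units. Ropn1l, of the sperm fibrous sheath, was at 2.88 ± 0.39, although it was also above background on 6 of 6 livers, with a log2 mean of 12.36 there and 12.82 in fat. Gk2, a testis glycerol kinase gene, was at 2.67 ± 0.54, and Ppp3r2, a testis calcineurin subunit gene, at 2.54 ± 0.40. The testis kinase genes Tssk6 and Tssk3 were at 2.61 ± 0.38 and 2.21 ± 0.36, Oaz3, a testis antizyme gene, at 2.35 ± 0.35, Fscn3, a testis fascin gene, at 2.26 ± 0.31, and Actl7a, of the acrosome, at 2.15 ± 0.39. All of these passed limma with an adjusted p of at most 2.0e-04. Tcp11, Gk2, Ppp3r2, Fscn3 and Tssk3 passed background on 0 of the 18 other arrays. Odf2 passed on 16 of those arrays, Ropn1l on 12, H1f7 on 11 and Oaz3 on 9.

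Tnp1, which encodes the other transition protein of spermatids, read 118, 566.2 and 5868.7 on congenic fat and 1330.5, 151.4 and 188.2 on B6 fat, and passed on 3 of 6 fat arrays. Its fat difference was 1.74 ± 0.44 (limma, adjusted p = 0.00217). Crem itself had 0.64 ± 0.35 (adjusted p = 0.134) and Fhl5, a testis partner of CREM, 0.92 ± 0.46 (adjusted p = 0.105). Crem was well above background on 10 of the 18 other arrays, as a gene with somatic forms.

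**Figure D2:**
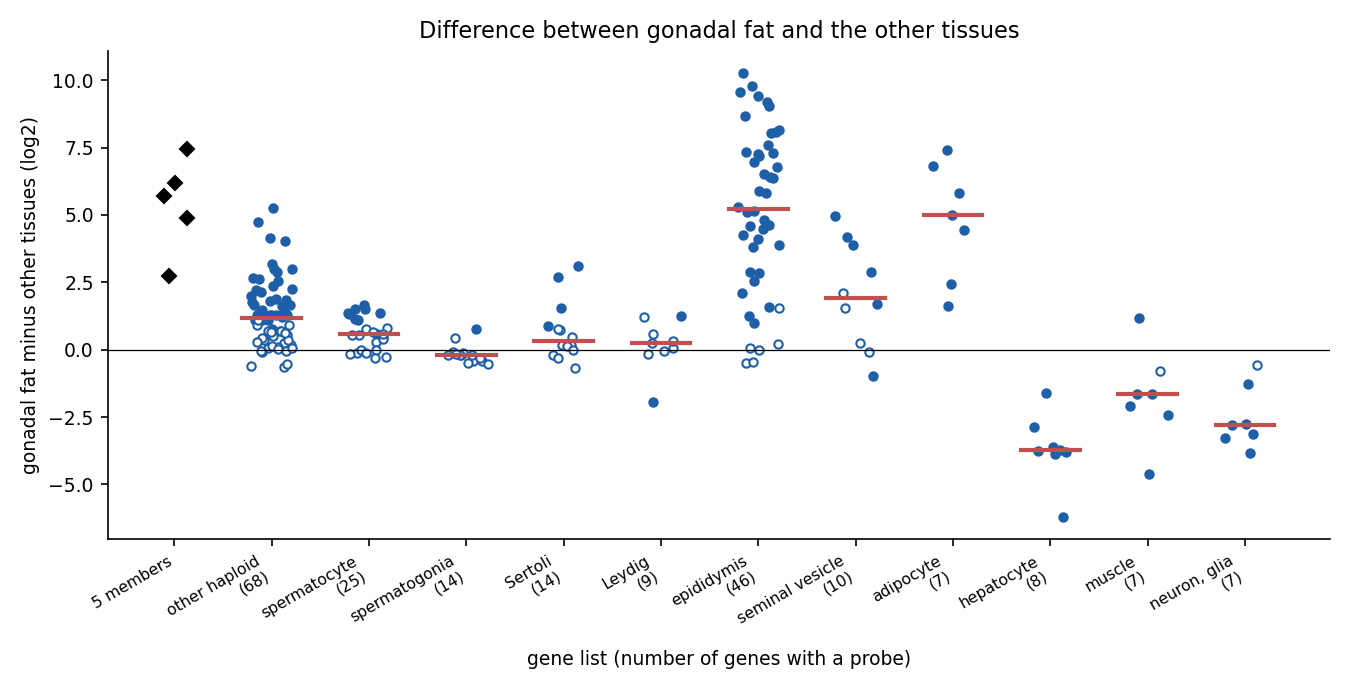
Log2 difference between the mean of the 6 gonadal fat arrays and the mean of the 18 other arrays, for the 5 genes (diamonds) and for the genes of each list (circles, filled where limma's adjusted p is under 0.05, open where it is not or the gene was not tested); red bars are list medians. The 5 genes lie between 2.73 and 7.44, the other haploid genes have a median of 1.17 and spermatogonial genes one of -0.19.

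Lists of earlier germ cells and of testis support cells were read in the same comparison. For scale, 30.1% of all named genes tested were higher in fat and 25.7% lower. A gene bright on fat alone passes the filter only there. No count without the filter was made for these lists or those that follow. Of 25 spermatocyte genes with a probe 19 were tested, of which 9 were higher and 0 lower, with a median of 0.57 over the 25. The largest were Stag3, of the meiotic cohesin, at 1.64 ± 0.33, H1f6, a testis linker histone gene, at 1.52 ± 0.54, and Hspa2, a spermatocyte chaperone gene, at 1.50 ± 0.28 (limma, adjusted p = 2.3e-04, 0.0236 and 9.9e-05). Hspa2 had its highest mean in brain, at 12.80 against 12.56 in fat. Of 14 spermatogonial genes 7 were tested, and Kit, which other cell types also express, was higher, at 0.76 ± 0.26 (adjusted p = 0.0176), and 0 were lower. The list median was -0.19, and 7 of the 14 passed background on no fat array, Stra8 among them.

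Of 14 Sertoli cell genes 13 were tested, of which 4 were higher and 0 lower, a share near the 30.1% of all named genes. They were Wt1 at 3.10 ± 0.29, Trf at 2.69 ± 0.21, Clu at 1.53 ± 0.37 and Rhox5 at 0.90 ± 0.29 (limma, adjusted p = 0.0139 for Rhox5). Wt1, Trf and Clu are also expressed by other cell types. Rhox5 passed background on 4 of 6 fat arrays and 0 of 18 others, and which cells gave its signal was not tested. Of the Sertoli genes that limma did not call, Aard passed on 6 fat arrays, Inha, Rhox8, Cldn11 and Sox9 on 5, Tsx on 3, Fshr and Dhh on 2 and Amh and Gata1 on 1.

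Of 9 Leydig cell genes 6 were tested. Vcam1, an adhesion molecule of many cell types, was higher at 1.25 ± 0.37 (limma, adjusted p = 0.00673) and Hsd3b6 was lower at -1.93 ± 0.36 (adjusted p = 8.2e-05). The steroid hydroxylase gene Cyp17a1 read 147.5, 4882.4 and 6499.1 on congenic fat and 1435.1, 18114.6 and 2482 on B6 fat. It passed on 5 fat arrays and 6 of 6 livers, with a difference of 1.22 ± 0.53 (adjusted p = 0.0622). Inhba passed on 6 fat arrays, Star on 2, Cyp11a1 on 1 and Hsd3b1, Hsd17b3 and Hao2 on 0.

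Markers of the epididymis, the duct where sperm mature and are stored, were high on the same tissue. Of 46 genes with a probe 44 were tested, of which 40 were higher in fat and 0 lower, against 30.1% and 25.7% of all named genes. Of those tested, 5 passed on at least 3 fat arrays and on no other array, so they entered the test through fat alone. Over all 46, tested or not, the median was 5.21 and 44 were above 0. The largest differences were those of Adam7, a membrane protein gene of the epididymis, at 10.27 ± 0.58, Cuzd1 at 9.76 ± 0.66 and Gpx5, an epididymal glutathione peroxidase gene, at 9.55 ± 0.86 (limma, adjusted p = 9.4e-13, 1.4e-11 and 1.9e-09). Gpx5 read 1221.1, 1727970 and 406515 on congenic fat and 2283600, 1079960 and 2332890 on B6 fat. Its lowest array was that of the 5 haploid genes, but its highest was not.

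Of 10 seminal vesicle genes 7 were tested, of which 5 were higher in fat and 1 lower, against the same shares of all named genes. Of those tested, 3 passed on at least 3 fat arrays and on no other array. Over all 10, tested or not, the median was 1.90 and 8 were above 0. Svs4 read 519612, 939.5 and 89548.6 on congenic fat and 260.7, 7039.1 and 4342.7 on B6 fat, a difference of 4.97 ± 0.79 from the other tissues. Svs5 and Svs2 were at 4.19 ± 0.84 and 3.90 ± 0.69 (limma, adjusted p = 1.9e-04 and 4.4e-05, with 1.1e-05 for Svs4). These 3 genes were highest on congenic replicate 1, the array where the haploid genes were lowest.

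By array, the lists went different ways. Deviations were taken from the mean of the 6 fat arrays. The median deviation of the 5 haploid genes was -4.65, 0.89 and 2.11 log2 units on congenic replicates 1, 2 and 3. On B6 replicates 1, 2 and 3 it was 1.34, -0.04 and 0.39. The -4.65 is the value of Pgk2, which like Prm1 was not well above background on that array. Prm2, Tnp2 and Ldhc, which passed there, were at -3.95, -4.90 and -3.17. The other haploid genes tested in fat followed in a smaller range, at -1.65, -0.09 and 1.23 and at 0.88, -0.58 and 0.13. Of these 54 genes, 35 were lowest on congenic replicate 1 and 38 highest on congenic replicate 3. Epididymal genes were at -4.51, 1.81 and -0.46 and at 1.38, 0.61 and 1.58, so their highest array was congenic replicate 2. Seminal vesicle genes were at 5.73, -2.76 and 2.76 and at -2.15, -0.60 and -1.48. Adipocyte genes were at 0.77, -0.89 and 0.32 on congenic arrays and within 0.19 of the mean on B6 arrays.

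Summed over the 68 other haploid genes, the normalized intensity ran from 50388 to 351750 on fat and from 45836 to 84103 on the other arrays. On congenic fat replicate 1, 21 of the 68 were well above background, against 38 to 64 on the other 5 fat arrays and 10 to 26 outside fat. Summed epididymal intensity ran from 262359 to 14445800 on fat, with at most 152392 elsewhere. Summed seminal vesicle intensity ran from 4712 to 1918350 on fat. It was 29594.5 to 54228.6 on gastrocnemius, 4441 to 37827 on liver and 3405 to 4701 on brain. Every gastrocnemius array thus lay above all fat arrays but congenic replicates 1 and 3. The part of these other cell types in the level of the 5 genes was not tested.

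**Figure D3:**
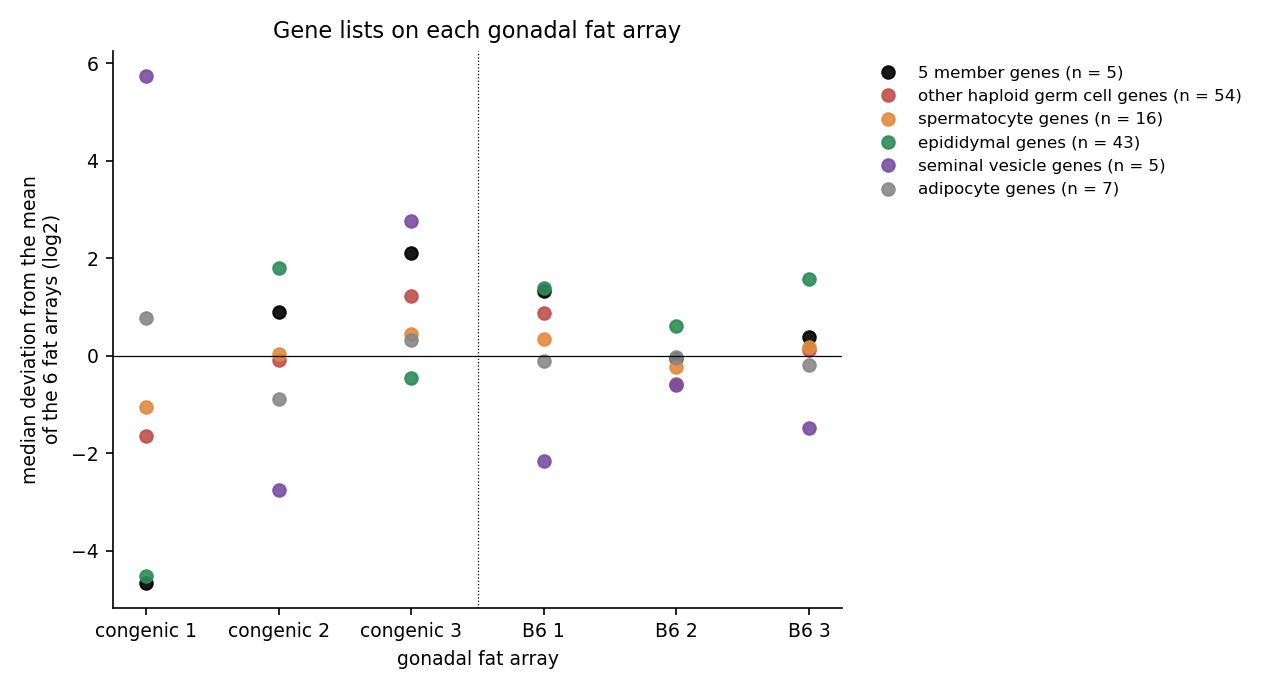
Median deviation from the mean of the 6 gonadal fat arrays, in log2 units, of the 5 genes and of 5 gene lists on each fat array; n is the number of genes tested in fat. On congenic replicate 1 the 5 genes lie at -4.65 and epididymal genes at -4.51, while seminal vesicle genes lie at 5.73. The -4.65 is the value of Pgk2, which was not well above background on that array.

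The 10 genes whose pattern was most like the mean of the 5 were named by Pearson correlation among 9401 genes, as a description. Over 24 arrays they were Crisp2, Trim36, Fabp9, Adam7, Slfnl1, Spz1, Iqcf3, Gpx5, Eppin and Tcp11, with r from 0.946 to 0.963 and Spearman's rho from 0.423 to 0.789. Crisp2 and Fabp9 encode proteins of sperm, and 3 of the 10 are in the epididymal list. Fabp9 read 149, 2693.1 and 13291.5 on congenic fat and 7163.5, 1901.8 and 4674.6 on B6 fat. All of these arrays share their tissue with others, so the value mostly restates fat against the rest.

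Over the 6 fat arrays alone the 10 were Spata24, Gsg1, Iqcf3, Mlf1, Csnka2ip, Slfnl1, Fscn3, Fam187b, Actl11 and Aqp11, with r from 0.988 to 0.996 and rho from 0.943 to 1. None of these is in the epididymal list, and 2 are in the haploid list. Spata24 varied much less than the 5 genes, from 680.1 to 4536.6, and Aqp11, a water channel gene, passed on 12 of the 18 other arrays. These are the 10 highest of 9401 genes over only 6 arrays, so the values are a description and carry no test.

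The strain comparison in fat did not enter the choice of genes and was tested. Limma called 0 of 17624 probes, 0% in either direction, with 609 at an unadjusted p under 0.05 and a lowest adjusted p of 0.909. None of the 5 genes passed. Prm1 had a log2 intensity of 13.53 ± 4.27 in congenic and 14.64 ± 0.69 in B6 fat (SD, n = 3 each), a difference of -1.11 with a 95% interval from -5.41 to 3.19 (limma, adjusted p = 0.940). Prm2 differed by -0.86 (interval -3.96 to 2.24), Tnp2 by -0.80 (-4.88 to 3.29), Ldhc by -0.69 (-3.78 to 2.41) and Pgk2 by -1.64 (-5.05 to 1.78), with adjusted p-values of 0.934, 0.961, 0.950 and 0.909. The intervals hold large differences in either direction. The SD of the congenic arrays was 2.66 to 4.27 and that of the B6 arrays 0.42 to 1.57, so the strains overlapped for every one of the 5. Of all tested probes, 3.21% had every congenic array below every B6 array and 4.89% had the reverse.

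All 5 strain differences were below 0, and all turned above 0 without congenic replicate 1. Prm1 was then at 1.31, Prm2 at 0.90, Tnp2 at 1.44, Ldhc at 0.72 and Pgk2 at 0.27. Over all tested probes, 48.9% had the lower mean in the congenic. Without congenic replicate 3 the differences widened, to -2.65 for Prm1 and -2.82 for Pgk2. No adjusted p of the 5 fell below 0.460 under any setting tried. Without congenic replicate 2 limma called 275 probes, none of them these 5.

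**Figure D4:**
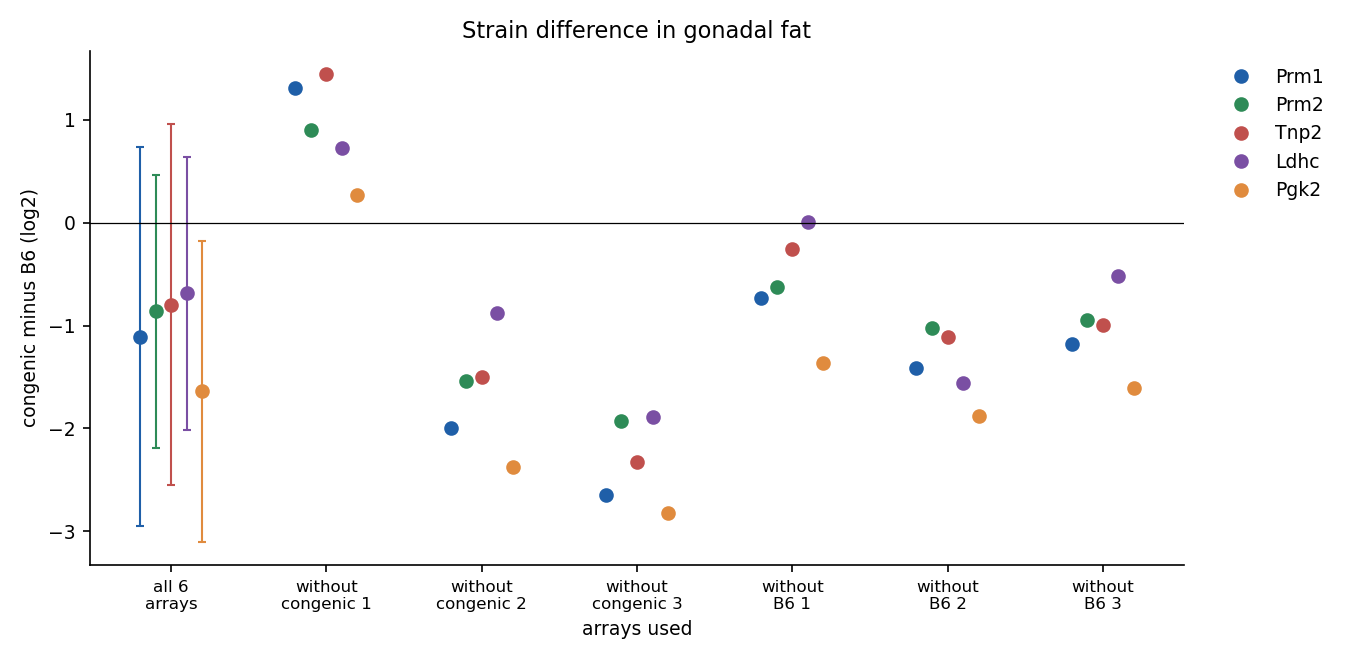
Congenic minus B6 in gonadal fat, in log2 units, for the 5 genes from all 6 arrays (with the standard error of the fit) and with each array left out in turn (no error drawn). All 5 lie below 0 from all 6 arrays and above 0 without congenic replicate 1, where they run from 0.27 to 1.44.

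Among the other 54 haploid genes tested in fat, 36 had the lower mean in the congenic, with a median of -0.27, and 0 passed. The epididymal list had 36 of 43 lower with a median of -2.08. The 5 seminal vesicle genes tested all had higher congenic means, with a median of 3.59, and in both lists 0 passed. Over all tested probes, 48.9% had the lower congenic mean. The congenic arrays did not go one way. Epididymal genes had a median deviation of -4.51 on congenic replicate 1 and 1.81 on congenic replicate 2, and seminal vesicle genes 5.73 and -2.76.

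In the other tissues a strain test was possible for Pgk2 in liver alone. It differed by 0.68 ± 0.53 (SE, limma, adjusted p = 1.00), with 3 of 3 congenic and 2 of 3 B6 livers well above background. Limma called 0 of 13956 probes there, with 456 at an unadjusted p under 0.05. The other genes passed on too few arrays of brain, liver or gastrocnemius to be tested. The 25th array, outside the triplicates, had ratios of -2.1 to -1.4 for the 5 genes.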

How the data were processed

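Total RNA was amplified to labelled cRNA and read on 1-colour Applied Biosystems arrays, per the labels' protocols. Per the file headers, each deposited table holds a Signal, which is an intensity, and a ratio of signal to noise, used here as a score. A series matrix deposited by the authors has log2 Signal plus 1 constant for each array and is blank below a ratio of 3, as tested on the files. Background steps before deposit are not stated.

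Signal was background corrected by normexp (offset 50), quantile normalized and fitted with limma 3.58.1 (R 4.3.3; lmFit, eBayes with intensity trend, Benjamini-Hochberg, threshold 0.05). The strain fit used 6 arrays per tissue and probes that reached a ratio of 3 on 3 or more of them. The tissue fit used 24 arrays, a mean per tissue and strain, and probes passing on at least 3. Depth is shown by probes passing per array; the number of arrays limits the precision, and p-values measure the spread between these arrays.

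Of 32996 probes, 14401 name 1 gene, 247 several and 18348 are unnamed here; a gene with several probes was read by the brightest. Promoters matched all 5 genes. Named were the 5 genes, Ldha, Ldhb, Pgk1, Crem, Fhl5, the 15 haploid list genes and 3 of each other germ cell or tract list with the largest called difference, neighbours within 3 places, and the 10 most alike. Other genes were named after their values were seen. Members and lists were chosen with earlier results of these data known. Numbers in liver, fat and muscle titles recur across tissues. Over 9 pairs of arrays with the same number, correlations of deviations from group means were -0.10 to 0.04, so the numbers were not used as a block.

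On simulated data the strain fit in fat (17624 probes) recovered 14% of probes changed by 2 log2 units and 72% of those changed by 4. The tissue fit (24120 probes) recovered 50% of those changed by 1 and 96% by 2. Changed probes were few and drawn at random, each with its own spread. The 5 genes had standard errors of 1.33 to 1.84 in the strain fit, so its shares do not describe them. In the data the tissue fit called 11773 probes, far more than were changed in the simulation.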

Additional observations from a re-analysis of the deposited data

Results flagged for a closer look

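For 20 of 53 sets of values, 1 array lay far from the others of its set by Dixon's test at its 95% critical value. Chance passes that value in about 1 of 20. Each of the 20 sets held the 6 gonadal fat arrays of both strains, and for 19 the array was congenic fat replicate 1. The sets share arrays and were in part chosen for likeness to one another, so they are not independent. On that array the log2 intensity was 8.66 for Prm1, with the nearest array at 14.04, 11.28 for Prm2, with the nearest at 15.34, and 5.98 for Pgk2, with the nearest at 10.91. Prm1 and Pgk2 were not well above background there, with ratios of 1.3 and -3.3, so their gaps are not measured spans. Tnp2 and Ldhc, which were well above background on that array, were also lowest there without passing the test.

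Of other haploid genes, Spz1, Tcp11 and Tssk6 were not well above background on the same array. It gave 11.35 for Smcp, 10.26 for Spz1, 8.13 for Tcp11, 11.49 for Odf2 and 9.56 for Tssk6. Of epididymal genes it gave 12.5 for Adam7, 15.84 for Cuzd1, 11.11 for Gpx5 and 10.36 for Eppin. Of the genes most like the 5 in pattern it gave 8.67 for Crisp2, 8.6 for Trim36, 8.06 for Slfnl1, 7.2 for Iqcf3, 8.07 for Csnka2ip, 7.15 for Fam187b and 8.01 for Actl11. Each gene of this last group was well above background on 5 of 6 fat arrays. Their Signal on congenic fat replicate 1 was only 91.5 to 248, so these gaps are not read as measured spans. For Crem the array far from the others was congenic fat replicate 3, at 12.18 against 10.68 for the nearest.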

How the results depend on the processing

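The strain differences in fat depended on single arrays. Over fits that leave out 1 fat array, they ran from -2.65 to 1.31 for Prm1, -1.93 to 0.90 for Prm2, -2.33 to 1.44 for Tnp2, -1.89 to 0.72 for Ldhc and -2.82 to 0.27 for Pgk2, and the number of called probes from 0 to 275. The highest value of each gene came without congenic replicate 1, and Ldhc was also above 0, at 0.0054, without B6 replicate 1. With series matrix values, which are blank for congenic replicate 1 there, Prm1 was at 1.56 and Pgk2 at 0.36. With Flag 0 values left out, an alternative added after seeing the data, Pgk2 was at 0.28. Adjusted p-values of the 5 genes ran from 0.460 to 1.00. The fat minus other difference stayed above 0 for each of the 5 under every setting that gave it a value, from 1.79 to 3.71 for Pgk2, 4.22 to 5.61 for Ldhc, 4.86 to 6.82 for Tnp2, 5.37 to 7.45 for Prm1 and 6.83 to 8.41 for Prm2. Series matrix values gave none for the 5, and congenic arrays only none for Prm1, which failed the filter there. The fold ranges with 1 fat array left out were added after seeing the data. The called total of 11773 was 6157 with series matrix values, where fewer probes could be tested, and 6951 with congenic arrays only. Other haploid genes higher in fat were then 2 and 15, against 27 to 41 with 1 fat array left out, where 0 to 1 were lower. With a replicate block on the title numbers the total was 11670, with 38 haploid genes, and no direction of the 5 genes changed; no strain fit within a tissue could hold a block, since no number occurs on more than 1 array of a tissue. At a ratio of at least 5 the 8 readings above background outside fat became 2. With Spearman in place of Pearson, 0 of the 10 most alike genes over 24 arrays and 4 of those over 6 fat arrays were named again. Values at or below background carry no order, and 3 arrays per group limit every interval.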
